A study of Mus musculus with 6 samples.

Results

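Cells sorted late in a factor-driven conversion of fibroblasts towards blood were compared with untreated fibroblasts. They were c-KIT+ cells, collected at day 12 after mouse embryonic fibroblasts (MEFs) of wild-type genotype were transduced with lentiviruses for ERG, GATA2, LMO2, RUNX1c and SCL. The other side were untreated MEFs, also of wild-type genotype, which received no factor and whose medium is not stated in the sources used here. The MEFs came from mid-gestation embryos, and blood and endothelial cells, recognised by c-KIT, CD45, CD41 or CD31, had been removed from those to be infected. After infection the cells grew in hematopoietic medium with c-KIT ligand, IL-3, GM-CSF, thrombopoietin, erythropoietin, M-CSF, IL-6 and IL-11, so the factors, the medium, 12 days of culture and the sort cannot be told apart in this comparison. The members are 2 arrays of c-KIT+ cells and 2 of untreated MEFs, 4 of the 6 arrays of the series, and all 26323 genes of the gene table. The other 2 arrays hold day 8 CDH5+ cells and enter the fit only through the estimate of the spread.

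Fibroblasts build connective tissue. They secrete collagens and other matrix proteins, hold on to that matrix through integrins, and pull on it with actin and myosin. The protein c-KIT binds stem cell factor and sits on blood stem cells, on progenitors of red cells, platelets and granulocytes, and on mast cells, and it is lost from most mature blood cells other than mast cells. Blood progenitors that commit to granulocytes first fill primary granules with enzymes such as myeloperoxidase, and later make the secondary granule proteins of neutrophils, eosinophils or basophils.

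All values are normalized log2 expression values, and a difference is the c-KIT+ mean minus the untreated mean. The 95th percentile of 884 olfactory receptor genes, which neither cell is known for, was taken as the background of each array. It averaged 5.99 for c-KIT+ cells and 5.91 for untreated MEFs. Where the dimmer group lay within background, the fold change is given as a lower bound, "at least", with dim values raised to the background of their array. Bulk arrays cannot tell fewer cells of a type from less RNA per cell. In limma with Benjamini-Hochberg adjustment, 854 genes were higher in c-KIT+ cells and 716 were lower, which is 3.24% and 2.72% of the genes tested. The c-KIT+ arrays lay wholly above the untreated arrays for 28.6% of genes and wholly below them for 22.9%. The size of the call set rests on the few arrays: with c-KIT+ replicate 1 left out 137 genes were higher and 11 lower, with c-KIT+ replicate 2 left out 152 and 18, with untreated replicate 1 left out 674 and 451, and with untreated replicate 2 left out 1855 and 1170. No call changed direction in any of these fits.

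The labels were checked against markers. Of 8 blood markers, 7 were higher in c-KIT+ cells, among them Cd53, Laptm5 and Coro1a, and the summed log2 level of the 8 was 61.4 on both c-KIT+ arrays, against 37.2 and 35.9 on the untreated arrays. The exception was Ptprc, which encodes CD45, the antigen of nearly all white cells. Ptprc measured 4.13 and 4.25 in c-KIT+ cells and 3.76 and 3.67 in untreated MEFs, all within background. Of its 53 probe sets 15 lay above both untreated values. A similar share, 24.9%, did so over all probe sets counted per gene, which is the baseline for such counts below. Of 8 fibroblast markers, 2 were lower in c-KIT+ cells, Col1a1 and Col1a2, and the untreated arrays themselves stood apart. Dcn, the matrix proteoglycan decorin, measured 9.11 and 9.35 in c-KIT+ cells and 11.86 and 7.82 in untreated MEFs, so the groups overlapped. Pdgfra, a growth factor receptor of mesenchymal cells, measured 5.43 and 5.26 in c-KIT+ cells and 10.05 and 7.01 in untreated MEFs. The summed level of 7 endothelial markers was 39.7 and 41.1 in c-KIT+ cells and 30.6 and 32.2 in untreated MEFs, and that of 5 epithelial markers 30.2 and 29.6, against 24.6 and 33.0. The X-inactivation RNA Xist measured 8.50 and 8.25 in c-KIT+ cells, against 10.10 and 3.95 in untreated MEFs, and the Y-linked Ddx3y 6.85 and 6.99, against 5.95 and 7.88. The part of this mismatch between the untreated arrays in the results was not tested.

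The largest groups of genes that moved, and several that did not, are shown as shares of gene lists.

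**Figure D1:**
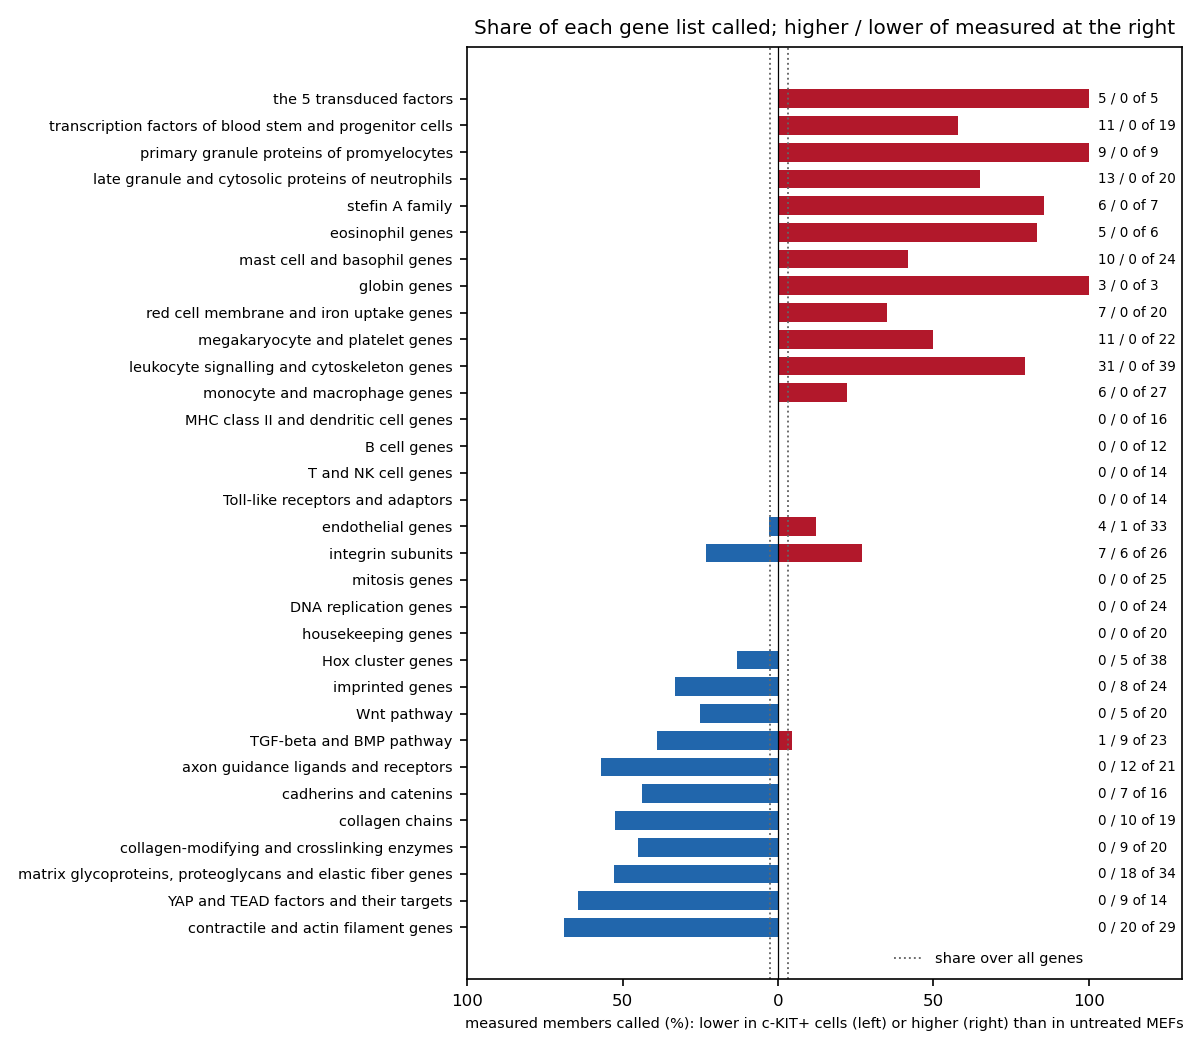
Share of the measured members of each gene list that were higher (red, right) or lower (blue, left) in c-KIT+ cells relative to untreated MEFs at a limma adjusted p under 0.05, in percent, with the counts higher / lower of measured at the right margin and dotted lines at the shares over all genes, 3.24% higher and 2.72% lower. Granule, globin and leukocyte signalling lists lie on the right, matrix, contractile and guidance lists on the left, integrins on both sides, and the lymphocyte, MHC class II, mitosis and replication lists have no call.

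Kit, the receptor on which the cells were sorted (ENSMUSG00000005672), measured 8.19 and 8.33 in c-KIT+ cells and 4.54 and 4.73 in untreated MEFs, and all 25 of its probe sets lay above both untreated values. This level describes the gate. The factors were next. Probe sets read vector and genomic transcripts alike, so the levels of the 5 genes include any vector RNA they match. Gata2 measured 9.30 and 9.11 in c-KIT+ cells and 5.29 and 6.07 in untreated MEFs, an increase of at least 9.26-fold. Tal1, which encodes SCL, measured 8.89 and 8.82 in c-KIT+ cells, against 5.81 and 5.83, and was at least 7.68-fold higher. Lmo2, a bridging protein that joins SCL to GATA factors, was at least 4.74-fold and Erg, an ETS factor, at least 2.73-fold higher. Runx1 was the exception among the factors in that untreated MEFs already had it well above background. It measured 9.56 and 9.53 in c-KIT+ cells and 8.55 and 8.37 in untreated MEFs, and it rose 2.12-fold (difference 1.09, standard error 0.19, limma adjusted p = 0.0348). Of the 5, 2 passed the test with either c-KIT+ array left out.

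Other blood transcription factors, not carried by the viruses, were often higher as well. Of 19 transcription factors of blood stem and progenitor cells, 11 were higher and 0 lower, with a median difference of 2.34, against 0.05 over all genes. Myb, which keeps progenitors dividing, measured 10.92 and 10.84 in c-KIT+ cells and 3.84 and 4.47 in untreated MEFs. It was at least 31.4-fold higher (difference 6.72, standard error 0.27, limma adjusted p = 0.000595), with all 28 probe sets above both untreated values. Lyl1, the closest relative of SCL, measured 8.50 and 8.66 in c-KIT+ cells, against 5.53 and 5.69. Fli1, the ETS factor most like ERG, measured 9.44 and 9.57, against 6.48 and 6.75, and Cbfa2t3, a corepressor that binds SCL complexes, 8.39 and 8.33, against 5.64 and 5.82. Fli1 and Ikzf2, the zinc finger protein Helios, were above background in both groups, and both differed by close to 3 log2 units, at 2.89 and 2.88. Gfi1, Hhex, Mycn, Ikzf1, Gfi1b and Etv6 were higher too. Several factors tied to stem cell self-renewal did not pass the test. Meis1 measured 7.08 and 7.27 in c-KIT+ cells, against 7.17 and 6.97, and Hlf, Bcl11a and Prdm16 lay within background in both groups. Mecom, which encodes EVI1, had a difference of -1.46 (limma adjusted p = 0.0527). Leaving out either c-KIT+ array, 7 of the 19 passed.

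Among the lineage factors, Nfe2, Klf1, Zfpm1 and Gata1, which act in red cells and megakaryocytes, were higher, 1 of them with either c-KIT+ array left out. Nfe2 measured 7.99 and 7.89 in c-KIT+ cells, against 4.12 and 3.88 in untreated MEFs. Gata1 and Klf1 stayed close to background in c-KIT+ cells, at 6.42 and 6.29 and at 6.69 and 6.38. Of 11 myeloid factors 2 were higher, Spi1, which encodes PU.1, and Cebpe, which drives the secondary granule genes of neutrophils and eosinophils. Cebpe measured 10.45 and 10.48 in c-KIT+ cells and 5.41 and 5.42 in untreated MEFs, and rose at least 23.5-fold. Irf8, a factor of monocytes and dendritic cells, measured 5.13 and 5.37, against 5.03 and 5.56, and Klf4, a factor shared by monocytes and fibroblasts, 5.81 and 5.72, against 7.27 and 7.62 (limma adjusted p = 0.0517). Cebpa was above background in both groups, at 8.35 and 8.56 in c-KIT+ cells and 7.81 and 7.13 in untreated MEFs, and missed the test. Surface proteins of progenitors were split. Cd93, Spn, Fcgr3, Fcgr2b, Itga2b, Cd244 and Cd48 were higher, 7 of 15, while Ly6a, which encodes SCA1, had a difference of -1.80 and Procr one of -0.16, and neither passed. Without c-KIT+ replicate 1 the count was 2, and without c-KIT+ replicate 2 it was 4.

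The cytokines of the medium made their receptors a direct question. Of 10 receptor genes for these cytokines, 3 were higher and 0 lower, with a median difference of 0.67. Csf2rb, the signalling chain shared by the IL-3, GM-CSF and IL-5 receptors, measured 11.29 and 11.18 in c-KIT+ cells and 4.77 and 4.54 in untreated MEFs, at least 40-fold higher (difference 6.58, standard error 0.22, limma adjusted p = 0.00043). Csf2rb2, its copy in the mouse that serves IL-3 alone, measured 9.74 and 9.44, against 4.28 and 3.80. The 2 genes are close in sequence, and probes that match both cannot assign their signal, although 27 of 28 Csf2rb probe sets and 8 of 8 Csf2rb2 probe sets lay above both untreated values. The ligand-binding chains of these receptors did not pass. Il3ra measured 8.34 and 8.33 in c-KIT+ cells, against 7.41 and 7.53, and Csf2ra 6.56 and 7.09, against 6.09 and 6.61. Epor, the erythropoietin receptor, was higher by 1.05 (limma adjusted p = 0.0355) at 6.31 and 6.37, against 5.37 and 5.21. Csf1r, the M-CSF receptor of monocytes and macrophages, was within background in both groups, at 5.71 and 5.76 in c-KIT+ cells and 5.62 and 5.64 in untreated MEFs. Il6st, the chain shared by the IL-6 and IL-11 receptors, ran the other way. It measured 7.11 and 7.38 in c-KIT+ cells and 10.74 and 9.18 in untreated MEFs, all 19 of its probe sets lay below both untreated values, and with a difference of -2.71 it missed the threshold (limma adjusted p = 0.0733).

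**Figure D2:**
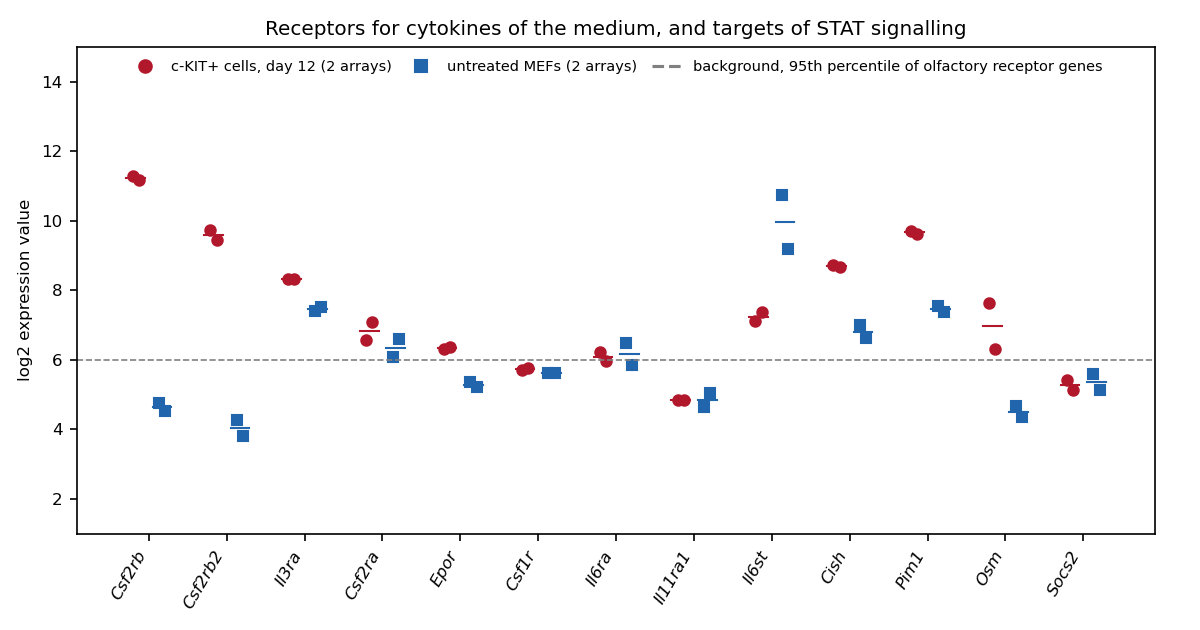
Log2 expression on each array of receptors for the cytokines of the medium and of genes induced by STAT signalling, c-KIT+ cells (red circles) left of untreated MEFs (blue squares), with short lines at the group means and a dashed line at background. Csf2rb and Csf2rb2 show the widest gaps, Csf1r lies at background in both groups, and the c-KIT+ points of Il6st lie below both untreated points, a difference that missed the threshold.

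Downstream of these receptors, a pair of genes induced by STAT5 was higher. Cish, a feedback inhibitor, measured 8.72 and 8.68 in c-KIT+ cells and 6.99 and 6.62 in untreated MEFs, and Pim1, a survival kinase, 9.72 and 9.63, against 7.55 and 7.37. Osm, which encodes the cytokine oncostatin M, differed between the c-KIT+ arrays themselves, at 7.63 and 6.31, against 4.68 and 4.34, and did not pass. Socs2 did not separate the groups. Of 17 JAK-STAT genes 3 were higher and 0 lower, and without c-KIT+ replicate 1 and 2 the higher calls numbered 1 and 0. Among receptors for other cytokines Il2rg, Il10ra and Ifngr1 were higher, though the count was 0 with either c-KIT+ array left out and 1 without untreated replicate 1, and Flt3, Il7r and Il5ra were within background in both groups.

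The globin genes that could be read were embryonic ones. Hbb-y, an embryonic beta-like globin, measured 11.70 on both c-KIT+ arrays and 3.82 and 3.95 in untreated MEFs, at least 55.3-fold higher (limma adjusted p = 0.00043). Hba-x, the zeta globin of primitive red cells, measured 8.95 and 9.13, against 5.37 and 5.66, and Hbb-bh1 7.09 and 7.15, against 3.08 and 3.54. All 3 globin genes that could be matched were higher with any array left out, and 4 other globin names of the list, the adult alpha and beta globins, had no match among the gene names of the table. Globin genes resemble each other in sequence, and signal shared between copies cannot be assigned. Of 20 red cell membrane and iron genes, 7 were higher and 0 lower. Car2, a carbonic anhydrase, measured 9.26 and 9.34 in c-KIT+ cells, against 4.33 and 4.87, and all 20 had higher means in c-KIT+ cells. Slc4a1, the anion exchanger band 3, reached 6.83 and 6.87, against 5.04 and 4.89, and missed the threshold (limma adjusted p = 0.0677). The skeleton genes Sptb and Ank1 stayed within background. Of the 20, 3 passed with either c-KIT+ array left out. Of 9 heme synthesis enzymes 1 passed the test, Alas1, the housekeeping form of the first enzyme, and Alas2, the red cell form, measured 5.93 and 6.30 in c-KIT+ cells, against 4.95 and 4.49.

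Platelet genes were higher in 11 of 22 cases and lower in 0, with a median difference of 1.45. Pf4, a chemokine of platelet granules, measured 9.76 and 9.66 in c-KIT+ cells and 4.50 and 3.74 in untreated MEFs. F2rl2, the thrombin receptor PAR3, measured 9.22 and 9.20, against 4.88 and 4.28. Members of the receptor for von Willebrand factor were read unequally. Gp5 measured 7.69 and 7.80 in c-KIT+ cells, against 3.60 and 3.09, Gp9 7.86 and 8.25, against 5.38 and 5.0, and Gp1ba 7.79 and 7.69, against 3.98 and 4.31, whereas Gp1bb measured 5.88 and 5.73, against 6.32 and 6.75, and did not pass. Tubb1, P2ry12 and Mmrn1 were among the platelet genes within background in both groups. Leaving out c-KIT+ replicate 1 left 4 platelet calls, and leaving out replicate 2 left 5.

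Promoter windows of RefSeq, 250 bases before to 50 after a gene start on GRCm38.p6, were searched on both strands for motifs of the transduced factors' families and of the serum response factor. Windows of 619 higher and 489 lower genes could be matched. The GATA motif AGATAA was in 13.1% of windows of higher genes, 5.44% of lower genes and 9.11% of genes in the table, and the RUNX motif TGTGGT in 18.2%, 9.95% and 14.2%. The ETS motif CGGAAG was in 14.2% and 12.6%, both under the 21.7% of genes in the table, and the E-box CAGATG in 15.7% and 11.5%, against 14.4%. The CArG box, the site of serum response factor, was in 1.42% of windows of higher genes, 2.95% of lower genes and 1.45% of genes in the table. Of the 20 platelet windows 5 held the GATA motif. No test was made, a match is not a site, and these windows leave out enhancers. Pf4 (chr5:90772185-90772484, plus strand) and Gp5 (chr16:30310732-30311031, minus strand) are shown because both are strongly raised platelet genes with the GATA motif, in capitals, which in Pf4 lies downstream of the start and in Gp5 occurs in 2 copies upstream.
Pf4: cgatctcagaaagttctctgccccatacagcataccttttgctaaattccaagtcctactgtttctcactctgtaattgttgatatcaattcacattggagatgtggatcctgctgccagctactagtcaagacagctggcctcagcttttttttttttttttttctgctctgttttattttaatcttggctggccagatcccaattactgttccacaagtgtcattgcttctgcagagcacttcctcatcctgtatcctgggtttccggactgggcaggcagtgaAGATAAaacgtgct
Gp5: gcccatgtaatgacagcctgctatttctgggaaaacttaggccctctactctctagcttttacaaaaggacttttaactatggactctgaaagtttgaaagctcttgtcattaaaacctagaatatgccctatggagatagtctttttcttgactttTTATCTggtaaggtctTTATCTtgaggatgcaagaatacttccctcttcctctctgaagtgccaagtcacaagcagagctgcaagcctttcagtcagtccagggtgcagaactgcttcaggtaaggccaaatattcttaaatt

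Granulocyte genes gave some of the widest gaps of the comparison. All 9 primary granule genes of promyelocytes were higher, with a median difference of 5.50. Mpo, myeloperoxidase, measured 11.66 and 11.64 in c-KIT+ cells and 4.65 and 4.83 in untreated MEFs, at least 53.4-fold higher, and Ctsg, cathepsin G, 11.68 and 11.60, against 4.06 and 4.38. Elane and Prtn3, the neutrophil serine proteases, were at 10.16 and 10.20 and at 9.35 and 9.43 in c-KIT+ cells. Late granule and cytosolic genes followed, 13 of 20 higher and 0 lower. S100a8 measured 12.22 and 12.11, against 4.51 and 3.93 (at least 76.5-fold higher), and Camp, cathelicidin, 11.15 and 11.31, against 5.40 and 5.34. Ltf, lactoferrin, measured 8.61 and 8.50, against 3.84 and 3.79, and Mmp8, neutrophil collagenase, 7.15 and 7.17, against 3.76 and 3.38. Mmp9, Padi4 and Fpr1, genes of the mature neutrophil, were within background in both groups. Cd177, of the late granule list, was higher at 6.76 and 7.07, against 5.12 and 5.30. Hp, haptoglobin, measured 9.26 and 9.35 in c-KIT+ cells and 11.74 and 5.15 in untreated MEFs, so the groups overlapped. With either c-KIT+ array left out 7 of the 9 primary and 8 or 9 of the 20 late granule genes passed.

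The stefin A family, cysteine protease inhibitors in a cluster of near-identical genes, had 6 of 7 measured members higher. Stfa1 measured 11.35 and 11.36 in c-KIT+ cells, against 3.31 and 2.67, and Stfa3 10.38 and 10.43, against 2.99 and 3.24. The copies share sequence, so their signals are not independent. BC117090, the member that did not pass, measured 4.50 and 5.75, against 4.05 and 2.92.

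Basophil and eosinophil genes were higher too. Mcpt8, a protease of basophils, measured 12.08 and 12.07 in c-KIT+ cells and 4.70 and 4.86 in untreated MEFs, at least 71.9-fold higher (limma adjusted p = 0.00043), and Prss34, another basophil protease, 10.97 and 10.38, against 4.66 and 4.94. Prg2, the major basic protein of eosinophil granules, measured 12.09 and 12.02, against 4.94 and 5.09, and Epx, eosinophil peroxidase, 10.65 and 10.33, against 4.74 and 4.90. Of 6 measured eosinophil genes 5 were higher, and Ccr3, the eotaxin receptor, measured 5.0 and 4.68, against 4.2 and 3.26, and did not pass. Without c-KIT+ replicate 1 there was 1 eosinophil gene that passed, and without c-KIT+ replicate 2 there were 2. Mast cell genes were split. Of the 24 mast cell and basophil genes 10 were higher and 0 lower, with Gzmb, Cpa3, Srgn, Hdc and Slc18a2, which fill and load granules, among the 10. Cpa3 measured 9.88 and 10.17 in c-KIT+ cells, against 3.77 and 3.50. The IgE receptor chains Fcer1a and Ms4a2 and the tryptases Tpsab1, Tpsb2 and Tpsg1 were within background in both groups, Fcer1a at 4.0 and 4.32 in c-KIT+ cells and 3.61 and 3.82 in untreated MEFs. Mcpt1 and Mcpt2 had differences of 2.44 and 2.65 with standard errors of 0.84 and 1.08, and did not pass. The mast cell and basophil count was 5 with either c-KIT+ array left out.

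**Figure D3:**
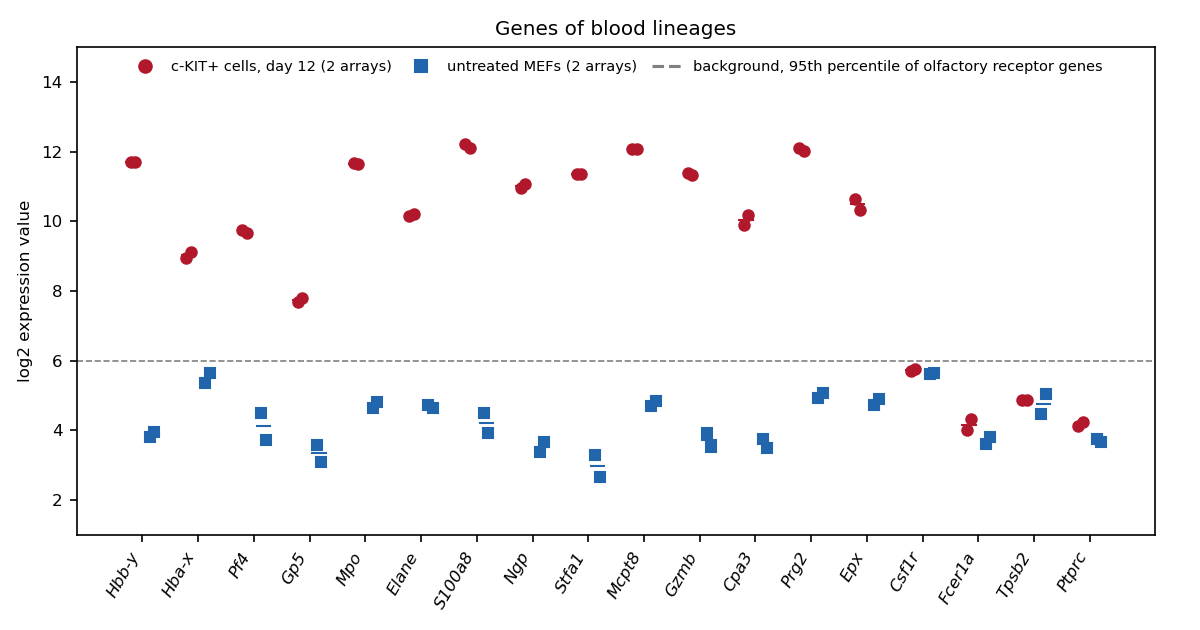
Log2 expression on each array of genes of red cells, platelets, neutrophils, basophils, mast cells, eosinophils and macrophages, c-KIT+ cells (red circles) left of untreated MEFs (blue squares), with short lines at the group means and a dashed line at background. The c-KIT+ values of Hbb-y to Epx lie above background and the untreated values below it, while Csf1r, Fcer1a, Tpsb2 and Ptprc lie below background in both groups.

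Mcpt8 (chr14:56085148-56085447, minus strand) and Gzmb (chr14:56262285-56262584, minus strand), granule protease genes of chromosome 14, are shown because each window held the RUNX motif 2 times and the E-box CAGATG once, both in capitals. The motifs may stand on either strand, as ACCACA and CATCTG, and the RUNX and E-box matches of Mcpt8 adjoin.
Mcpt8: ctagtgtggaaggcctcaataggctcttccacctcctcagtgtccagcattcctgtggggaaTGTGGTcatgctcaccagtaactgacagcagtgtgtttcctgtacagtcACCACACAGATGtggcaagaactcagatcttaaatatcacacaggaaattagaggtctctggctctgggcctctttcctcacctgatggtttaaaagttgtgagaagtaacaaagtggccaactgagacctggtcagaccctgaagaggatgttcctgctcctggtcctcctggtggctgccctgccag
Gzmb: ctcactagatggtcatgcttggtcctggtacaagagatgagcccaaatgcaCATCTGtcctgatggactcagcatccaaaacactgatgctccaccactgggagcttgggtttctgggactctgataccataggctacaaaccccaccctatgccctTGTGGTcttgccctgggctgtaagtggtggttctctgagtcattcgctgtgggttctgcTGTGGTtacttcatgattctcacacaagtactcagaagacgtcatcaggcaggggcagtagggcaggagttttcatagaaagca

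Of 27 monocyte and macrophage genes 6 were higher and 0 lower, 22.2% against 3.24% over all genes, with a median difference of 0.14. Itgam, the CD11b chain, measured 7.88 and 7.79 in c-KIT+ cells, against 4.62 and 4.31, Cd14 8.48 and 8.40, against 6.13 and 4.81, and Ccr2 6.75 and 6.86, against 3.52 and 3.53. Emr1, which encodes F4/80, passed the test while within background on all 4 arrays, at 5.38 and 5.02 in c-KIT+ cells and 4.01 and 3.94 in untreated MEFs. Of 16 MHC class II and dendritic cell genes, 12 B cell genes and 14 T and NK cell genes, limma called 0 in either direction, and 1, 1 and 3 had an unadjusted p under 0.05. Their median differences were 0.01, 0.04 and 0.06. The macrophage count was 1 with either c-KIT+ array left out. No member of the MHC class II list was above background in c-KIT+ cells. Toll-like receptors and their adaptors, 14 genes, also gave 0 limma calls (5 at an unadjusted p under 0.05), with 6 above background in each group.

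The signalling equipment that white cells share rose broadly, with 31 of 39 genes higher and 0 lower and a median difference of 2.65. Tyrobp, an adaptor of immune receptors, measured 10.32 and 9.98 in c-KIT+ cells and 4.60 and 4.39 in untreated MEFs, and Rac2, the blood form of a GTPase that steers the actin skeleton, 9.31 and 9.20, against 4.98 and 5.13. In the same cells Rac1, the form found in all tissues, measured 8.17 and 7.94, against 8.57 and 8.46. Of the phagocyte oxidase, Cybb, Ncf1 and Ncf4 were higher, and Cyba, at 10.63 and 10.64, against 8.50 and 9.70, did not pass. In the leukotriene pathway Alox5ap, Alox5 and Lta4h were higher, Alox5ap at 11.05 and 10.89, against 6.01 and 5.19, Alox5 at 8.93 and 8.92, against 4.33 and 4.40, and Lta4h at 10.09 and 10.12, against 7.18 and 7.87. Ltc4s, the synthase of leukotriene C4, measured 6.11 and 6.53, against 6.19 and 5.34, and did not pass. Ltb4r1, the receptor for the product of that path, leukotriene B4, measured 9.17 and 9.14 in c-KIT+ cells and 5.89 and 5.96 in untreated MEFs (difference 3.23, limma adjusted p = 0.00721). The prostaglandin enzymes Ptgs2, Ptges and Ptgis had differences of -1.60, -1.06 and -0.96 and did not pass. Related enzymes kept in other lists, Ptgs1, Tbxas1 and Hpgds, had differences of 1.63, 0.78 and 0.37 and did not pass either. Ptgs1 measured 9.06 and 9.09 in c-KIT+ cells, against 8.19 and 6.71, while Tbxas1 and Hpgds were within background in both groups. Among chemokine receptors Cxcr4, which holds progenitors in the marrow, measured 9.37 and 9.38, against 3.56 and 3.65, and Ccr1 and Ccrl2 were higher too. The chemokines Ccl3, Ccl6 and Ccl4 were higher, and Cx3cl1, a chemokine of fibroblasts and endothelium, was lower at 5.55 and 5.59, against 7.92 and 7.37. With either c-KIT+ array left out, 11 or 12 of the leukocyte signalling genes, 2 of the eicosanoid genes and 0 of the oxidase genes and chemokines passed. Without untreated replicate 2 the oxidase count was 5.

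Of 33 endothelial genes, the class of the day 8 CDH5+ cells, 4 were higher, Pecam1, Lyve1, Cdh5 and Icam2, and 1 was lower, Ecscr. That is 12.1% and 3.03%, against 3.24% and 2.72% over all genes. The c-KIT+ arrays lay wholly above the untreated arrays for 19 of the 33 and wholly below them for 5, beside 28.6% and 22.9% of all genes. At an unadjusted p under 0.05 there were 10 rises and 3 falls. Pecam1 and Icam2 are also made by leukocytes and platelets. Cdh5, VE-cadherin, measured 7.2 and 7.49 in c-KIT+ cells and 5.26 and 5.01 in untreated MEFs, with 12 of 14 probe sets above both untreated values. Tek, Kdr, Tie1, Esam and Emcn were within background in both groups. With either c-KIT+ array left out, 0 of the 5 passed.

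Integrins, the receptors by which cells grip matrix and each other, moved in both directions. Of 26 subunits 7 were higher and 6 lower, and the median difference was -0.06. Itgb2, the beta chain of the leukocyte integrins, measured 9.06 and 8.94 in c-KIT+ cells and 4.66 and 4.63 in untreated MEFs, and its partner Itgal 8.13 and 7.94, against 4.54 and 4.43. Itga4, the receptor chain for VCAM1, and the platelet pair Itga2b and Itgb3 were higher too, Itgb3 at 8.28 and 8.27, against 5.97 and 6.62. Itga5 and Itgav, alpha chains of fibronectin and vitronectin receptors, were lower, as was Itgb5. Itga5 measured 7.12 and 7.31 in c-KIT+ cells, against 8.95 and 9.70, Itgav 6.99 and 7.17, against 9.33 and 9.60, and Itgb5 6.54 and 6.85, against 8.86 and 8.41. Itgb1, the beta chain common to most matrix integrins, stayed bright at 9.90 and 9.89, against 10.86 and 11.11, a difference of -1.09 (limma adjusted p = 0.037), with all 20 probe sets below both untreated values. Itga11, a collagen receptor of fibroblasts, had the largest difference of the family, -4.60. It measured 5.25 and 5.58 in c-KIT+ cells and 11.27 and 8.75 in untreated MEFs and missed the threshold (limma adjusted p = 0.0552). Without c-KIT+ replicate 1 no subunit passed, without c-KIT+ replicate 2 the higher calls numbered 2, and without untreated replicate 1 there were 5 higher and 2 lower.

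**Figure D4:**
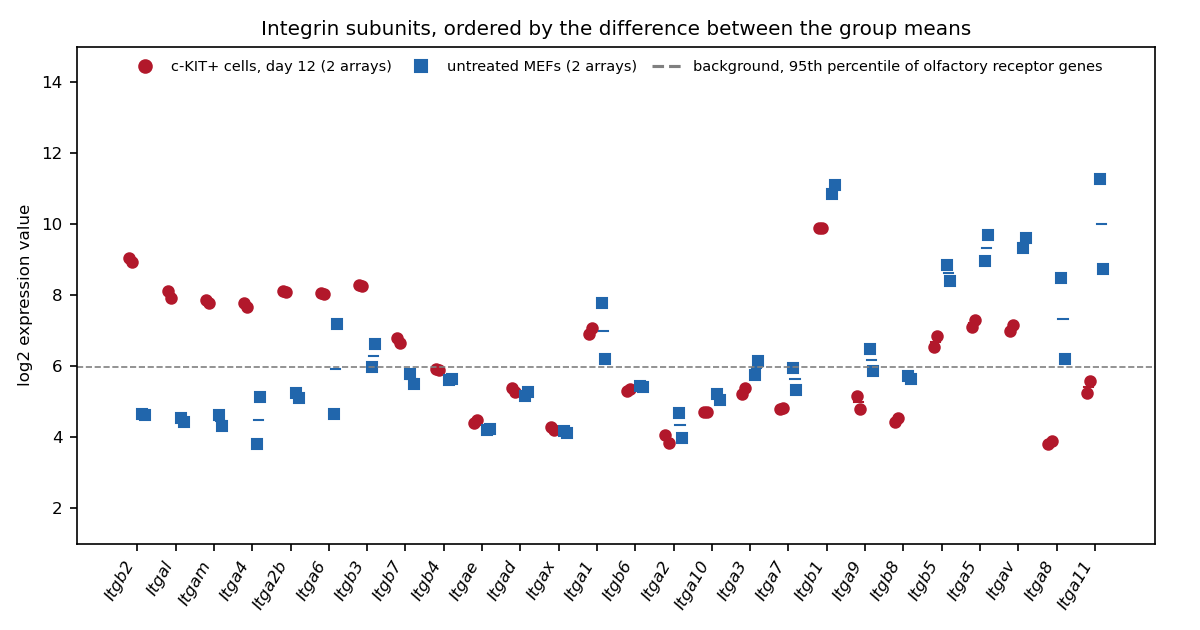
Log2 expression on each array of 26 integrin subunits, ordered by the difference between group means, c-KIT+ cells (red circles) left of untreated MEFs (blue squares), with short lines at the group means and a dashed line at background. The c-KIT+ points of the leukocyte chains at the left lie above background and the untreated points below it, Itgb3 is above background in both groups, and at the right Itgb5, Itga5 and Itgav are lower in c-KIT+ cells, as is Itgb1.

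The fibroblast programme was lower across its layers. Among 30 mesenchymal transcription factors 6 were lower and 0 higher: Snai1, Gli3, Six2, Nfib, Prrx2 and Gli2. Snai1, a repressor of epithelial genes, measured 5.71 and 5.65 in c-KIT+ cells and 8.06 and 8.46 in untreated MEFs, and Gli3, a transcription factor of Hedgehog signalling, 5.59 and 5.88, against 8.02 and 8.00. Among 23 receptor tyrosine kinases of mesenchymal cells 7 were lower and 0 higher. Ddr2, a kinase that senses fibrillar collagen, measured 5.83 and 6.05 in c-KIT+ cells, against 9.23 and 8.94, Fgfr1 6.45 and 6.64, against 8.65 and 8.45, and Axl 6.79 and 7.02, against 8.69 and 9.0.

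Collagen chains were lower, and so were the enzymes that prepare collagen for export and crosslink it. Of 19 chains 10 were lower, of 20 processing enzymes 9, and of 34 other matrix genes 18, with 0 higher in each list and every difference negative. Serpinh1, the collagen chaperone, measured 7.24 and 7.50 in c-KIT+ cells and 9.26 and 9.50 in untreated MEFs. P4ha1, P4ha2 and P4ha3, subunits of the prolyl hydroxylase, were all lower, P4ha3 at 5.22 and 5.47, against 8.69 and 8.11. Loxl2, a crosslinking oxidase, measured 6.49 and 6.73, against 10.19 and 10.10, and stayed above background (11.6-fold lower, limma adjusted p = 0.00572). Bmp1, which trims procollagen, and Fkbp10 were lower as well. Col6a3 had all 51 of its probe sets below both untreated values and Hspg2, the basement membrane proteoglycan perlecan, 109 of 110. Over all probe sets with 1 gene symbol 23.2% lay below both untreated values. Collagen in c-KIT+ cells was not down to background: Col1a1 measured 7.46 and 7.59, against 11.32 and 10.72.

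YAP and TEAD factors and their target genes, which respond to cell spreading and stretch, were lower in 9 of 14 cases and higher in 0. Ctgf, a matricellular protein, measured 6.98 and 6.88 in c-KIT+ cells and 10.67 and 10.63 in untreated MEFs (13.2-fold lower, limma adjusted p = 0.00107). Cyr61 measured 9.29 and 9.39, against 11.86 and 11.69, and Ankrd1 6.70 and 7.01, against 9.23 and 9.56. Among the factors in this list, Yap1 measured 6.24 and 6.32, against 7.86 and 7.50, and Tead1 6.05 and 6.40, against 8.91 and 8.96. Caveolar genes, 5 of 7 lower, moved with them, Cav1 at 5.67 and 6.10, against 8.02 and 9.15.

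In the contractile list 20 of 29 genes were lower, with a median difference of -1.92. Of its 29 promoter windows 5, from 4 genes, held a CArG box, 17.2% against 1.45% of windows of genes in the table. Those genes were Fhl2, in both of its windows, Myl9, Cnn2 and Vcl, and Fhl2 and Myl9 were lower in the test. Myl9, a myosin light chain, measured 6.89 and 7.40 in c-KIT+ cells and 10.87 and 10.88 in untreated MEFs. Fhl2, a LIM protein of actin fibers, measured 6.25 and 6.41, against 10.38 and 9.31. Their windows are shown with the CArG box in capitals, Myl9 at chr2:156775214-156775513, plus strand, and Fhl2 at chr1:43196712-43197011, minus strand.
Myl9: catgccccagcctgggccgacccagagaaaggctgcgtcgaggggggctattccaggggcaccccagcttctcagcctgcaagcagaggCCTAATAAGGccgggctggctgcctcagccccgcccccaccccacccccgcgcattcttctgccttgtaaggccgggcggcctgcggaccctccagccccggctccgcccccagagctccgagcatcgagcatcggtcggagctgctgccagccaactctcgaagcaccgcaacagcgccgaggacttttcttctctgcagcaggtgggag
Fhl2: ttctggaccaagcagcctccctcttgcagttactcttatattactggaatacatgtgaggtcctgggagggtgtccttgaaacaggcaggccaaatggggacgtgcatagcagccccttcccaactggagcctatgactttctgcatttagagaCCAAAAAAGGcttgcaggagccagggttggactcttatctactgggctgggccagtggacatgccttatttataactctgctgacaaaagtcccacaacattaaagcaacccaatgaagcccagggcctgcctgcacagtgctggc

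Signals between cells shifted in the same comparison. Of 23 TGF-beta and BMP genes 9 were lower and 1 higher, and the ligands parted. Tgfb1, above background in both groups, measured 9.64 and 9.75 in c-KIT+ cells and 7.14 and 7.91 in untreated MEFs, 4.5-fold higher. Tgfb2 measured 4.77 and 5.04, against 8.24 and 8.57, and Tgfb3 5.56 and 5.43, against 9.02 and 9.47. Inhba, which encodes an activin subunit, measured 6.90 and 7.34, against 9.54 and 10.41. Of 21 axon guidance genes 12 were lower and 0 higher, with both sides of several pairs among them. Slit2 measured 5.38 and 5.70, against 8.20 and 8.25, and its receptor Robo1 4.83 and 5.26, against 7.71 and 7.53. The ephrin Efnb2 measured 5.59 and 5.71, against 8.30 and 8.83, and its receptor Ephb4 5.65 and 5.67, against 7.75 and 7.03. Nrp1, a receptor for semaphorins, stayed above background at 6.66 and 6.73, against 8.94 and 8.86. Wnt pathway genes were lower in 5 of 20 cases, with Wisp1, a Wnt target gene, at 6.20 and 6.49, against 9.50 and 9.63. Cadherins and catenins were lower in 7 of 16, with Fat1 at 7.42 and 7.40, against 10.98 and 10.25.

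The counts of these falls rested on both c-KIT+ arrays, while the median difference of each of these lists stayed negative with either left out. For collagens the median was -2.618 with all arrays, -2.555 without c-KIT+ replicate 1 and -2.681 without c-KIT+ replicate 2. For the contractile list these medians were -1.919, -1.915 and -1.96. Leaving out an untreated array moved them more. Without untreated replicate 1 and 2 the medians were -2.139 and -2.926 for collagens and -2.216 and -1.925 for the contractile list. Without c-KIT+ replicate 1 the lower calls were 3 in the contractile list, 2 in the TGF-beta list, 1 in the YAP list and 0 among mesenchymal factors, kinases, collagens, processing enzymes, other matrix genes, caveolar, guidance, Wnt and cadherin genes. Without c-KIT+ replicate 2 the counts were the same except for 2 guidance genes. Without untreated replicate 1 they were 3 mesenchymal factors, 3 kinases, 3 collagens, 3 processing enzymes, 9 other matrix genes, 4 TGF-beta genes, 4 cadherins and catenins and 0 Wnt genes. Without c-KIT+ replicate 1 or 2, Tgfb1 did not pass.

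Marks of position and of the embryo remained part of the comparison. Of 38 Hox genes 36 had lower means in c-KIT+ cells, though only 23 were above background in untreated MEFs and 4 in c-KIT+ cells. The c-KIT+ arrays lay wholly below the untreated arrays for 31, beside 22.9% of all genes. The test called 5 lower and 0 higher: Hoxd9, Hoxc12, Hoxb9, Hoxd8 and Hoxc5. That is 13.2%, against 2.72% over all genes. Hoxd9 measured 5.12 and 5.51 in c-KIT+ cells, against 7.58 and 7.75. Hoxa9, a Hox gene of blood progenitors, measured 6.04 and 6.05, against 5.75 and 6.52, and did not separate the groups. Of 24 imprinted genes 8 were lower and 0 higher. H19, a noncoding RNA, measured 7.17 and 7.34 in c-KIT+ cells and 11.58 and 11.24 in untreated MEFs (17.8-fold lower, limma adjusted p = 0.00431), and its neighbour Igf2, the fetal growth factor, 6.08 and 6.00, against 9.19 and 9.81. Igf2r, the receptor that removes IGF2, was lower as well at 6.78 and 6.77, against 9.77 and 9.44, with all 52 probe sets below both untreated values. Meg3, Rian and Mirg, noncoding RNAs of a single imprinted cluster, were lower together, Meg3 at 4.78 and 4.52, against 8.98 and 8.51. Peg10 went the other way at 8.94 and 9.29, against 7.0 and 7.84, and missed the test (limma adjusted p = 0.0585). With either c-KIT+ array left out 0 of the Hox and imprinted genes passed.

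Cell cycle genes differed by an amount that hung on the untreated array. All 25 mitosis genes and all 24 replication genes had higher means in c-KIT+ cells, with median differences of 1.58 and 1.37, and limma called 0 of them, with 2 mitosis and 12 replication genes at an unadjusted p under 0.05. Without untreated replicate 2, 24 of the 25 mitosis and 22 of the 24 replication genes were called higher, and 0 without any other single array of the comparison. The median of the mitosis genes was 8.25 and 8.23 in c-KIT+ cells and 5.33 and 8.06 in untreated MEFs. Set against untreated replicate 1 the c-KIT+ mean was higher by a median of 2.97, and against untreated replicate 2 by 0.27. For replication genes these medians were 2.28 and 0.45. Both c-KIT+ arrays exceeded both untreated arrays for 17 of the mitosis genes and 22 of the replication genes, beside 28.6% of all genes.

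**Figure D5:**
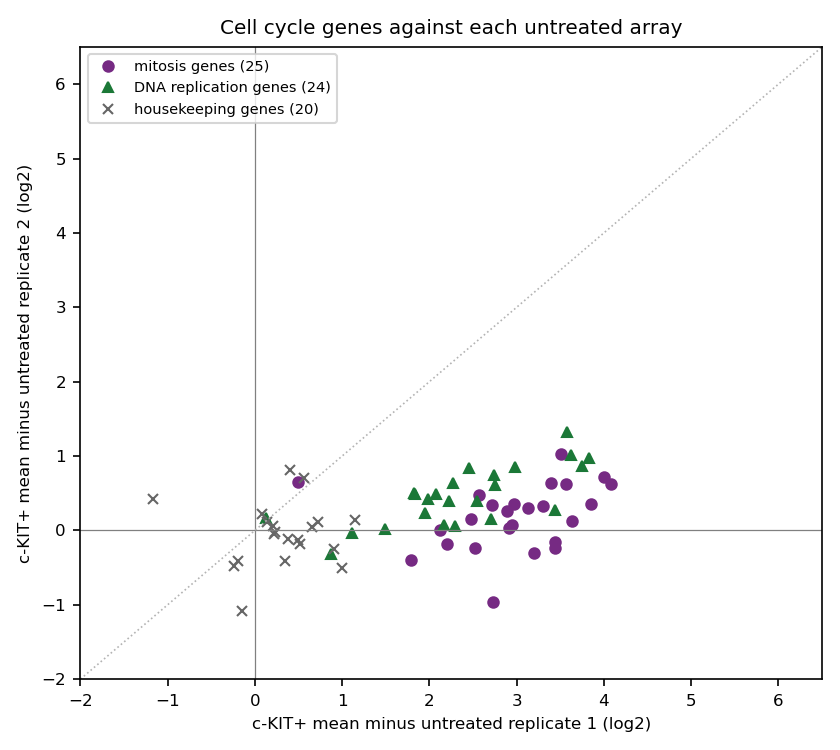
Difference of the c-KIT+ mean from untreated replicate 1 (horizontal axis) and from untreated replicate 2 (vertical axis), in log2 units, for mitosis (circles), replication (triangles) and housekeeping genes (crosses), with a dotted line of equal differences. The cell cycle genes lie far to the right but close to 0 on the vertical axis, with medians of 2.97 and 0.27 for mitosis, while housekeeping genes have medians of 0.361 and -0.03.

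Genes of other tissues gave few calls. Of 14 muscle, 10 bone and 8 adipocyte genes limma called 0, with 3, 0 and 0 at an unadjusted p under 0.05, and of 11 pluripotency genes 0, with 1. Of 12 neural and glial genes 1 was lower, 8.33% against 2.72% over all genes. Of 19 epithelial and mesothelial genes 2 were higher, 10.5% against 3.24% over all genes, among them Cldn3, a tight junction protein. Matrix proteases and their inhibitors, a fibroblast group, moved more. Of 19 such genes 5 were lower, 26.3% against 2.72% over all genes, with a median difference of -2.18. Mmp14, a membrane-bound collagenase, measured 8.45 and 8.61, against 10.78 and 10.64. Both lists had 0 calls with either c-KIT+ array left out.

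Genes of general metabolism gave few calls. Of 18 glycolysis genes 1 was higher, Slc2a3, a glucose transporter of leukocytes and neurons, of 22 cholesterol genes 1, Idi1, and of 11 citric acid cycle enzymes 0, also at an unadjusted p under 0.05. The single calls are 5.56% and 4.55% of their lists, close to the 3.24% over all genes. Without untreated replicate 2 the glycolysis and cholesterol counts were 2 and 6, and with any other single array of the comparison left out both were 0. Gsr, glutathione reductase, measured 9.60 and 9.62 in c-KIT+ cells, against 7.72 and 8.06. Bcl2, which blocks apoptosis, measured 8.72 and 8.85, against 5.92 and 7.23. Perp, a p53 target gene, measured 9.55 and 9.70, against 5.85 and 6.35, and was the 1 higher gene in a list of 24 p53 and CDK inhibitor genes, where Plk2 was the 1 lower. That is 4.17% each way, close to the 3.24% and 2.72% over all genes. The immunoproteasome genes Psmb8, Psmb9 and Psmb10 and the peptide transporter gene Tap2 were higher, 4 of 12 MHC class I genes, and with either c-KIT+ array left out 0 were. Interferon response genes, 22 in number, gave 0 limma calls (2 at an unadjusted p under 0.05), and so did 20 housekeeping genes (1), with a median difference of 0.14.

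Outside these lists, several genes rose from a group mean above background in untreated MEFs. Rab38, a GTPase of lysosome-related organelles, measured 10.48 and 10.54 in c-KIT+ cells and 5.99 and 6.00 in untreated MEFs (difference 4.52, standard error 0.23, limma adjusted p = 0.00109). Sp110, a nuclear body protein, measured 10.18 and 10.25, against 6.69 and 6.57, and Rbm38, an RNA-binding protein, 9.30 and 9.22, against 6.23 and 6.51. Iqgap2, a scaffold protein of the actin skeleton, measured 8.86 and 9.0, against 5.65 and 6.56, with 42 of 44 probe sets above both untreated values. Muc13, a cell surface mucin, was among the rises with the lowest p, at 10.62 and 10.69, against 4.39 and 4.48, where the untreated values lay within background. Of the falls, Lmod1, a nucleator of muscle actin, measured 4.38 and 4.30, against 7.69 and 7.61, Plat, tissue plasminogen activator, 5.07 and 5.23, against 8.06 and 7.75, and C1qtnf3, a secreted protein related to C1q, 3.87 and 4.07, against 7.68 and 7.37. By class, 784 of 19988 protein-coding genes were higher (3.92%) and 649 lower (3.25%). Of 1459 lincRNA genes 15 were higher (1.03%) and 21 lower (1.44%), under the 3.24% and 2.72% over all genes.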

How the data were processed

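RNA of 2 arrays each of untreated MEFs, day 8 CDH5+ and day 12 c-KIT+ cells was measured on Mouse Exon 1.0 ST arrays, and the paper calls the replicates biological without saying how the cultures were separated, so p-values measure the spread between these arrays. What the authors deposited are normalized log2 values for genes and for probe sets. How values were normalized, by what software and on which build were not given in the sources used here. From the deposited gene values, a mean per group was fitted to each of 26323 genes over all 6 arrays with limma 3.58.1 in R 4.3.3 (3 residual degrees of freedom), and c-KIT+ was contrasted with untreated MEFs. Calls were made at a p under 0.05 after Benjamini-Hochberg adjustment over every gene, with none filtered out. The number of arrays limits the precision. The fit was tested on simulated data.

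The 68 gene lists, of which 1123 of 1143 genes were found, and the members were chosen with earlier results of these data known. Genes named are those of the largest differences above background in both groups, of the lowest p, Kit, the factors, the receptors for the medium, and up to 4 called members per list. Others were named after their values were seen, and a few genes are not reported here. The 321091 probe sets with 1 gene symbol were counted per gene. Promoter sequences are from RefSeq, build GRCm38.p6. Alternatives were the 4 arrays alone, a replicate block, each array left out, median centring, quantile normalization, 1 row per symbol, a filter on dim genes, a variance trend, robust variances, the median of probe sets, a minimum difference of 1 and an adjusted p under 0.01.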

Additional observations from a re-analysis of the deposited data

How the results depend on the processing

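The 854 higher and 716 lower calls of c-KIT+ cells against untreated MEFs kept their direction in every alternative in which they were called. With 1 array left out the higher calls ranged from 137 to 1855 and the lower calls from 11 to 1170. A test against a log2 difference of 1 gave 253 and 59, and an adjusted p under 0.01 gave 298 and 90. Within 1.5 times were the 4 arrays alone (642 and 591), the filter on dim genes (1098 and 1066 of 12958 genes), quantile normalization (731 and 751), median centring (827 and 827), the variance trend (969 and 826), robust variances (832 and 683), 1 row per symbol (853 and 717) and the median of probe sets (782 and 701). Whether arrays with the same replicate number share a culture is not stated, so any pairing is unknown. With the replicate block there were 625 and 486 calls. The correlation of replicate differences was -0.0153 between c-KIT+ cells and untreated MEFs. It was -0.0461 between c-KIT+ and CDH5+ cells and 0.12 between untreated MEFs and CDH5+ cells. Xist, with a difference of 1.35, reversed to -1.72 without untreated replicate 2 and was 4.42 without untreated replicate 1, and the cause was not tested. Background limited 654 rises that began within it and 470 falls that ended there. Among these, 118 higher and 72 lower calls had both group means within background. The list totals include such calls, Gp6, Car1, Kel, Cd200r3 and Itgb8 among them.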
